A study of Mus musculus with 8 samples.

Results

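The genes described are 33 markers of endothelial cells, the cells that line blood vessels and the inner surface of the heart, followed in RNA from preparations that the labels call mouse heart cardiomyocytes. They were chosen by name, and each was found by matching Ensembl identifiers to mouse gene symbols: 33 of 51826 identifiers in the table, all 33 among the 16623 genes with enough counts to be tested. The study compared wild-type (WT) C57BL/6 mice with C57BL/6 mice null for LncSync, a long noncoding RNA gene (LncSync-/-, here KO), at an embryonic stage named e13.5 and in adults. Each of the 4 groups, WT e13.5, KO e13.5, WT adult and KO adult, had 2 libraries numbered 1 and 2. All groups share the strain, and no transgene or treatment is named in the labels. The adult age, the design of the null allele, the sorting of the cells and any pooling of embryos were not stated in the sources at hand. Because the labels do not say whether libraries of one group stand for different animals, each p-value reflects the spread between these libraries alone, which may be technical.

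Endothelial cells hold each other at junctions built from VE-cadherin, claudin-5 and PECAM-1. They read growth signals through VEGF receptors (Kdr and Flt1) and through the angiopoietin receptor Tie2 (Tek), and ETS and SOX factors such as Erg, Fli1 and Sox17 maintain their identity. In the heart they form a dense capillary bed around the cardiomyocytes, and as the heart matures this bed takes on the task of passing fatty acids and water to the muscle.

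Levels are given as CPM, the counts of a gene scaled to a common library size after correction for composition. The libraries held between 16495084 and 20395600 counts, so that 3 counts in a library, the limit that a count of 0 allows, stand for 0.103 to 0.207 CPM. All 33 endothelial genes had at least 1 count in 7 libraries, and 32 in WT e13.5 library 1, where Tcf15 had none. A list of 10 cardiomyocyte genes summed to between 7427 and 15670 CPM at e13.5 and to between 52190 and 76150 CPM in adults. The 33 endothelial genes summed to 1581 and 2002 CPM in WT e13.5, 1957 and 1903 in KO e13.5, 3267 and 2425 in WT adults, and 4572 and 2535 in KO adults. As a percentage of the cardiomyocyte sum, this was between 10.7% and 25.6% at e13.5 and between 3.2% and 8.76% in adults. Myh6 was the largest part of the adult cardiomyocyte sum, with 25160 to 42760 CPM in adults against 777.9 to 2870 at e13.5. Actn2, another gene of that list, had 1685 to 1984 CPM in adults against 1039 to 1381 at e13.5. The percentage thus depends on how each cardiomyocyte gene changed with age and is not a share of cells. These are bulk preparations, in which fewer cells of a type and less RNA per cell cannot be told apart. LncSync itself could not be found by name in the table, so its loss was not checked. Xist, which female cells express, had between 12.8 and 81.8 CPM in the e13.5 libraries and at most 0.464 CPM in the adult libraries, while the Y-linked Ddx3y had between 5.81 and 26.0 CPM at e13.5 and between 30.0 and 79.0 CPM in adults. The e13.5 libraries thus held transcripts of both sexes and the adult libraries were near 0 for Xist, so the share of the sexes went with age and the effects of age and sex cannot be told apart.

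Before the comparisons, 2 ways in which libraries of one group stood apart need to be stated. At e13.5, long transcripts had higher CPM in the libraries numbered 2 than in those numbered 1. The 9 endothelial genes with transcripts of 4000 bases or more were a median of 2.35-fold higher in WT library 2 than in WT library 1 and 1.57-fold higher in KO library 2 than in KO library 1 (ratios of CPM + 0.5), against 1.96-fold and 1.45-fold for all tested genes of that length. The 11 endothelial genes under 2000 bases had medians of 0.8-fold and 0.859-fold, and all tested genes of that length 0.668-fold and 0.731-fold. Across the 33 genes, which share these libraries and are not independent, the log2 ratio of library 2 to library 1 rose with log2 transcript length (Pearson r = 0.474 and Spearman rho = 0.539 in WT, 0.373 and 0.423 in KO). The KO adult libraries showed a similar relation (0.380 and 0.340) and the WT adult libraries did not (-0.05 and -0.11). Plvap (1987 bases), Sox17 (3242 bases) and some other genes were uneven, given here as ratios of CPM without the added 0.5. Plvap was 25.8-fold and Sox17 33.2-fold higher in WT library 2 than in WT library 1. The ratios were 8.50-fold for Ptprb, 8.47-fold for Tek, 8.02-fold for Cdh5, 6.21-fold for Flt1 and 6.00-fold for Kdr. Sox17 had 7 counts in WT library 1, and with 0.5 added its log2 ratio was 3.77. In adults, KO library 1 stood above the others for most endothelial genes, as described with the genotype comparison.

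**Figure D1:**
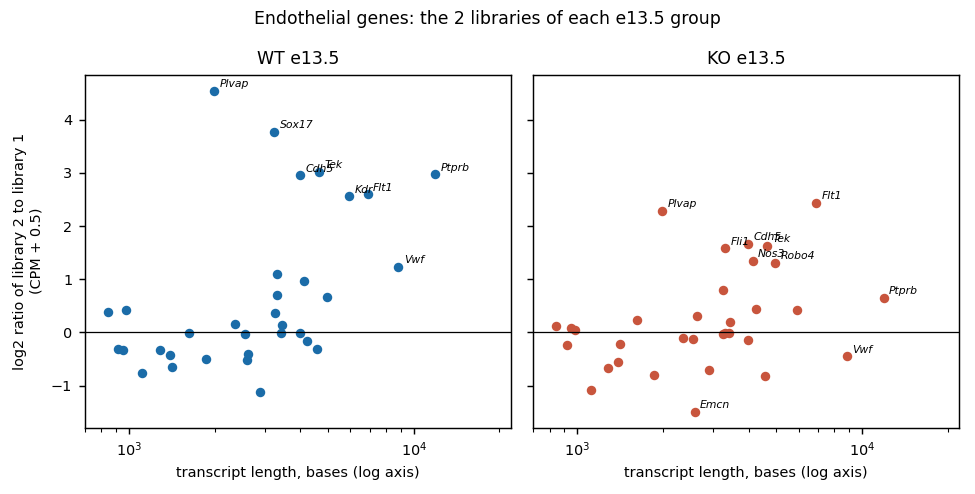
Each point is an endothelial gene, placed by its transcript length in bases (log axis) and by the log2 ratio of CPM + 0.5 in e13.5 library 2 to that in e13.5 library 1, with WT and KO shown separately. The 9 genes with transcripts of 4000 bases or more had median ratios of 2.35-fold in WT and 1.57-fold in KO, and the 11 under 2000 bases 0.8-fold and 0.859-fold.

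Compared per kilobase of transcript, so that genes of different length can be set side by side, the most abundant endothelial transcripts differed between the ages. In WT e13.5 they were Eng at 79.0, Egfl7 at 71.0 and Cd34 at 60.9 CPM per kilobase, encoding the TGF-beta co-receptor endoglin, a secreted vessel protein and a sialomucin of immature endothelium. In WT adults they were the water channel gene Aqp1 at 192.6 CPM per kilobase, Ly6c1 at 136.3 and the cell cycle regulator Rgcc at 60.9, with Eng at 57.1 and Cdh5 at 56.9 just behind Rgcc. The lowest of the 33 was Tcf15 in WT e13.5, at 0.088 CPM per kilobase, and in WT adults Plvap at 3.96 and Fli1 at 4.2.

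**Figure D2:**
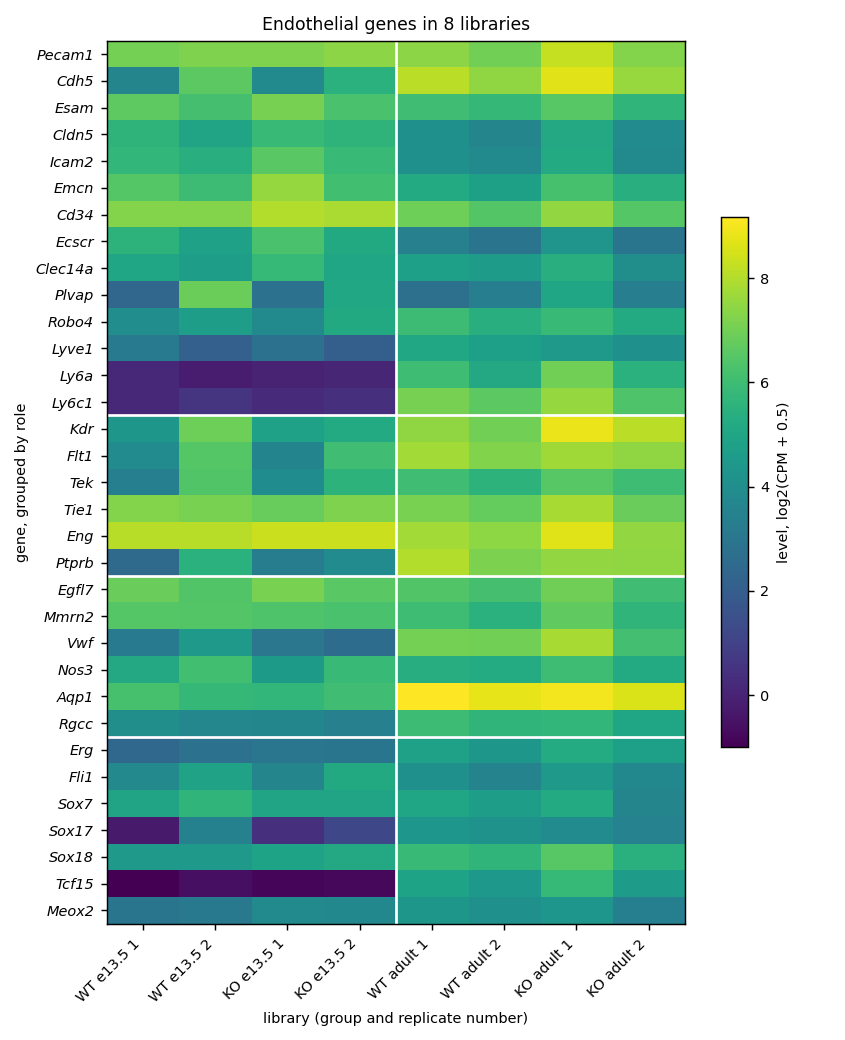
Heat map of the level of each of the 33 endothelial genes (one row per gene, grouped by role) in the 8 libraries (columns), coloured by log2(CPM + 0.5). Ly6c1, Ly6a and Tcf15 stay below 1 CPM in all e13.5 libraries and lie above 20 CPM in every adult library.

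The first question was how the endothelial genes differed between the embryonic and the adult heart. In WT, 10 of the 33 genes rose from e13.5 to adult and 3 fell (edgeR quasi-likelihood test, Benjamini-Hochberg adjusted p below 0.05), while 20 did not pass the test. In KO, 12 rose, 2 fell and 19 did not pass. Of all tested genes, 17.8% rose and 21.1% fell in WT, and 20.5% rose and 20.9% fell in KO. The median log2 fold change of the 33 genes was 0.25 in WT and 0.58 in KO, beside -0.26 and -0.15 for all tested genes. In WT the ages did not overlap for 16 genes higher and 9 lower in adults, and in KO for 16 and 4. Of all 16623 tested genes, 5660 and 6949 stood apart in this way in WT, and 5792 and 6294 in KO. A lack of overlap between the ages was thus common and does not set a gene apart. The genes called higher in both genotypes were Ly6c1, Ly6a, Tcf15, Aqp1, Rgcc, Vwf, Ptprb, Erg and Lyve1, and those called lower in both were Icam2 and Ecscr. Sox18 was called higher and Cldn5 lower in WT alone, and Cdh5, Kdr and Sox17 higher in KO alone. A call in one genotype and not in the other does not show a difference between them: the test of that difference, the interaction of genotype and age, called none of the 33 genes and 0% of all tested genes. At an unadjusted p below 0.05 it held 1 of the 33, Kdr, beside 265 of all 16623 tested genes (1.59%). DESeq2 also called none of the 33.

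**Figure D3:**
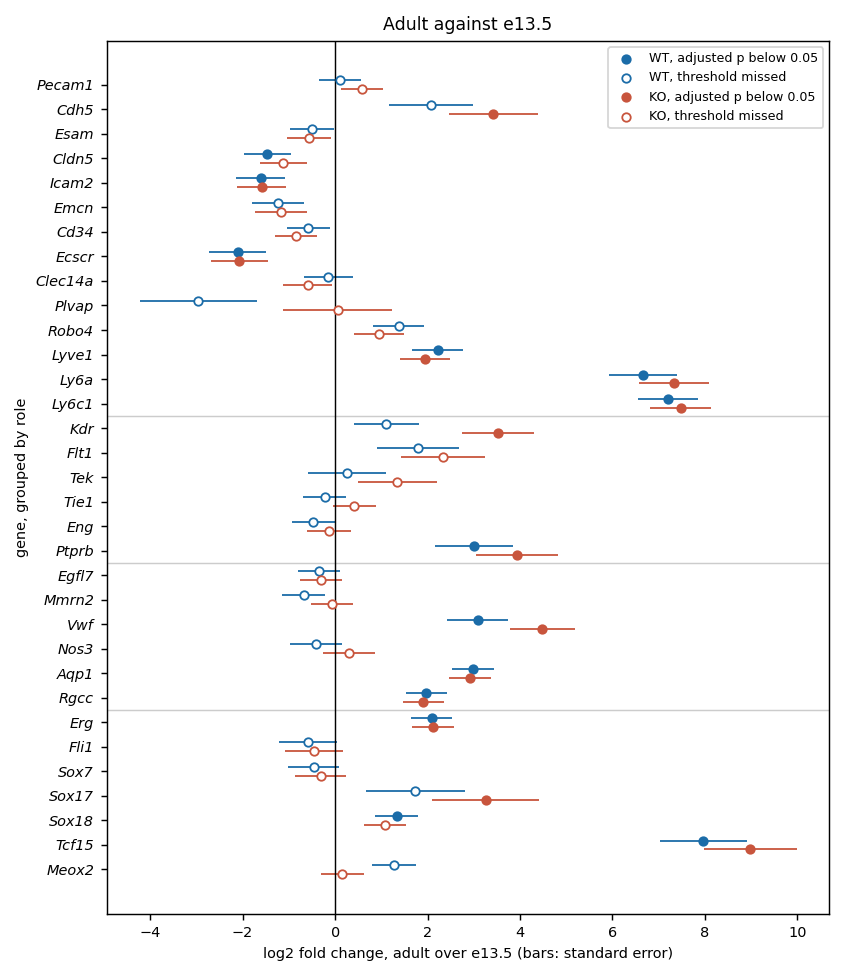
Log2 fold change from e13.5 to adult for each of the 33 endothelial genes in WT and in KO, with bars showing the standard error and filled symbols the genes past an adjusted p of 0.05. Ly6c1, Ly6a and Tcf15 stand far to the right in both genotypes, and Icam2 and Ecscr lie to the left in both.

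The largest rises were those of Tcf15, Ly6c1 and Ly6a. Ly6c1 and Ly6a, which encode small GPI-anchored proteins of the Ly6 family (Ly6a is also known as Sca-1), lie near each other at chr15:75044018-75048830 and chr15:74994877-74998031 (GRCm38). Ly6c1 had 0.599 and 0.930 CPM in WT e13.5 and 0.688 and 0.791 in KO e13.5, against 134 and 96.4 in WT adults and 186 and 81.1 in KO adults. Every adult library was above every e13.5 library. The log2 fold change was 7.21 ± 0.65 (SE) in WT (148-fold) and 7.48 ± 0.66 in KO (178-fold), with adjusted p of 0.000216 and 0.00017. The Ly6c1 transcript is 97.57% identical to that of Ly6c2 over 97.4% of its length, so reads of the pair may have been split between them. Ly6c2 was listed at 0 to 0.438 CPM at e13.5 and 3.25 to 6.06 CPM in adults.

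Ly6a had 0.599 and 0.379 CPM in WT e13.5 and 0.5 and 0.554 in KO e13.5, and rose to 64.7 and 34.8 in WT adults and 128 and 44.5 in KO adults. Its groups did not overlap between the ages, and the log2 fold changes were 6.67 ± 0.73 in WT and 7.33 ± 0.76 in KO, with adjusted p of 0.000347 and 0.000248. Tcf15, a basic helix-loop-helix factor that marks heart endothelium specialised for fatty acid uptake (chr2:152143561-152149097), was close to absent in the embryo. It had 0 and 0.172 CPM in WT e13.5 and 0.0625 and 0.0791 in KO e13.5, against 29.6 and 20.9 in WT adults and 55.5 and 23.9 in KO adults. These levels rest on 5 counts in WT e13.5 and 813 in WT adults, a ratio of 260.3 after scaling with a 95% counting interval of 111.1 to 803.8. In KO they rest on 3 and 1202 counts, a ratio of 546.4 with an interval of 186.5 to 2653. These intervals cover counting error only. The test called Tcf15 in both genotypes, with an adjusted p of 0.00042 for WT and 0.000297 for KO.

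Aqp1, the water channel of capillary endothelium (chr6:55336432-55348555), had 72.8 and 54.8 CPM in WT e13.5 and 52.5 and 64.9 in KO e13.5. It had 573.5 and 438 CPM in WT adults and 501 and 388 in KO adults. Every adult library was far above every e13.5 library, and the log2 fold changes were 2.99 ± 0.45 in WT and 2.92 ± 0.45 in KO, with adjusted p of 0.00115 and 0.00119. Red blood cells also make Aqp1. The 10 erythroid genes with counts went the other way, with a sum of 19490 to 153800 CPM at e13.5 and 17.8 to 181.2 CPM in adults. The part of red cells in the levels of Aqp1 was not tested.

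Rgcc, a regulator of the cell cycle (chr14:79288756-79301645), had 15.8, 12.6, 12.3 and 10.3 CPM in the e13.5 libraries, in the order WT 1, WT 2, KO 1, KO 2. In adults it had 61.6 and 50.2 CPM in WT and 52.9 and 32.2 in KO, all above the embryonic values. It rose 3.93-fold in WT (log2 1.97 ± 0.44, adjusted p = 0.00724) and 3.76-fold in KO (1.91 ± 0.44, adjusted p = 0.00794). The calls were lost without WT adult library 1 in WT (log2 1.82) and without KO adult library 1 in KO (log2 1.51), with adjusted p up to 0.0716 and 0.0601 over all alternatives run. Meox2, a homeobox factor of heart endothelium that acts together with Tcf15, did not pass the test. It had 7.19 and 8.06 CPM in WT e13.5, 13.8 and 12.7 in KO e13.5, 20.4 and 16.5 in WT adults and 19.6 and 10.0 in KO adults, so the ages overlapped in KO and not in WT (log2 1.27 ± 0.47, adjusted p = 0.0573 in WT). Of the 19 alternatives run, 5 called it higher in WT and none in KO.

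The stretches of 250 bases upstream of the transcription start are shown for Ly6c1 and Aqp1, which rose, and for Cldn5, which fell in WT, because ETS factors such as Erg and Fli1, whose own levels are described further on, bind DNA around the core GGAA. Sequences and starts are from RefSeq on GRCm38.p6, which held an entry for 16 of the 33 genes, and capitals mark GGAA or its complement TTCC. Ly6c1 is on the minus strand at chr15:75048838-75049087, and Aqp1 and Cldn5 are on the plus strand at chr6:55336049-55336298 and chr16:18776597-18776846.
Ly6c1: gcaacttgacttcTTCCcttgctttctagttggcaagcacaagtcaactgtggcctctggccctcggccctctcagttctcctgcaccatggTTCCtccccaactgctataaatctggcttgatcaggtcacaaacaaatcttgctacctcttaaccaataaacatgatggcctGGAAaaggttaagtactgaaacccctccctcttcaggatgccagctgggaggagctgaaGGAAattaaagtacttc
Aqp1: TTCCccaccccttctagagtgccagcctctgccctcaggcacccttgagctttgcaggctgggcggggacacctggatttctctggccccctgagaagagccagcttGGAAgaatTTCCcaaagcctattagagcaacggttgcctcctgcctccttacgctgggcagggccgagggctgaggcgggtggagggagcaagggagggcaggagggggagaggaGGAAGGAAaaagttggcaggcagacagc
Cldn5: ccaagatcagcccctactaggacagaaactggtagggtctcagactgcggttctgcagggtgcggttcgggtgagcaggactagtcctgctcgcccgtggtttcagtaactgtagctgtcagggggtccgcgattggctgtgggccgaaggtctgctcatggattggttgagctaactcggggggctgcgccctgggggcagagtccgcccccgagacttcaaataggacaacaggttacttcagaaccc
The stretch of Ly6c1 held 4 matches on both strands together, that of Aqp1 5 and that of Cldn5 0. The median was 4 over the 16 endothelial genes with an entry and 3 over all promoters. Rgcc, which rose, held 1 match, and Tie1, which was called in neither genotype, held 7. Of the 16 endothelial genes with an entry, 14 held GGAA, beside 93.4% of 32851 promoters of the same length, and Erg, which rose, held none. The longer ETS match CCGGAAGT, which contains GGAA, was in 0 of 16 (2.88% of all promoters), the SOX core AACAAT in 2 of 16 (9.42%) and the GATA core AGATAA in 0 of 16 (9.99%). These matches describe letters in the window and not bound sites.

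Junction and surface genes went in both directions, as did all tested genes. Of these 14 genes, 3 rose and 3 fell in WT, and 4 rose and 2 fell in KO. Beside them, 17.8% of all tested genes rose and 21.1% fell in WT, and 20.5% and 20.9% in KO. Pecam1, the adhesion molecule CD31 found on all endothelial cells, had 132.5 and 146 CPM in WT e13.5, 145 and 167 in KO e13.5, 169.8 and 129 in WT adults and 311 and 153 in KO adults. The ages overlapped in both genotypes, with log2 fold changes of 0.10 ± 0.45 in WT and 0.58 ± 0.46 in KO, with adjusted p of 0.88 and 0.325. Cd34, Esam (a junction adhesion molecule), Emcn (endomucin, a surface sialomucin) and Clec14a (an endothelial C-type lectin) likewise did not pass the test, with log2 fold changes in WT of -0.58 ± 0.46, -0.50 ± 0.48, -1.23 ± 0.56 and -0.15 ± 0.53. In KO they were -0.85 ± 0.46, -0.57 ± 0.48, -1.17 ± 0.56 and -0.60 ± 0.53.

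Cdh5, which encodes VE-cadherin, had 11.9 and 95.8 CPM in WT e13.5 and 13.6 and 44.0 in KO e13.5. It had 274 and 180.0 CPM in WT adults and 422 and 195 in KO adults. All adult libraries were above all e13.5 libraries, but the e13.5 libraries of one genotype differed by up to 8.02-fold. The rise passed the test in KO (log2 3.42 ± 0.96, adjusted p = 0.0184) and not in WT (2.08 ± 0.90, adjusted p = 0.0938). In KO the call was lost without KO e13.5 library 1 (log2 2.83) and without KO adult library 1 (2.77). Robo4, a guidance receptor that stabilises vessels, had 15.4 and 24.8 CPM in WT e13.5 against 62.3 and 42.2 in WT adults, and 14.1 and 35.6 CPM in KO e13.5 against 59.2 and 37.0 in KO adults. The ages did not overlap, yet the difference did not pass in WT (1.38 ± 0.55, adjusted p = 0.071) or in KO (0.95 ± 0.54, adjusted p = 0.178), although 8 of the 19 alternatives called it higher in WT and 3 in KO.

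The genes that fell all had short transcripts, but a short transcript did not set them apart. Of the 11 endothelial genes under 2000 bases, 5 rose and 3 fell in WT, and 4 rose and 2 fell in KO. Of all 4655 tested genes of that length, 554 rose and 1404 fell in WT, and 600 and 1361 in KO. Icam2, an adhesion molecule that binds leukocyte integrins (chr11:106377656-106388075, transcript of 1282 bases), had 52.4 and 41.6 CPM in WT e13.5 and 93.4 and 58.6 in KO e13.5, against 16.9 and 13.8 in WT adults and 36.6 and 13.8 in KO adults. Every adult library lay below every e13.5 library, with log2 fold changes of -1.61 ± 0.53 in WT and -1.59 ± 0.53 in KO, with adjusted p of 0.0368 and 0.0363. Ecscr, a surface protein that regulates endothelial chemotaxis (transcript of 1114 bases), had 47.0, 27.4, 75.3 and 35.4 CPM in the 4 e13.5 libraries and 10.2, 7.02, 19.0 and 7.29 in the 4 adult libraries, in the order WT 1, WT 2, KO 1, KO 2. Its ages did not overlap, and it fell by 2.11 ± 0.61 on the log2 scale in WT and by 2.07 ± 0.61 in KO, with adjusted p of 0.0224 and 0.0225. Cldn5, the tight junction protein claudin-5 (chr16:18776847-18778262, transcript of 1416 bases), had 47.8 and 30.2 CPM in WT e13.5, 57.1 and 49.0 in KO e13.5, 16.5 and 11.7 in WT adults and 34.4 and 14.3 in KO adults. The ages did not overlap within either genotype, although KO adult library 1 lay above WT e13.5 library 2, and the fall passed in WT (-1.46 ± 0.52, adjusted p = 0.048) and not in KO (-1.12 ± 0.51, adjusted p = 0.103).

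Among all tested genes, those under 2000 bases had a median log2 fold change of -0.93 in WT and -0.88 in KO, and those of 4000 bases or more 0.48 and 0.86. With offsets adjusted for transcript length, Ecscr alone was still called lower (log2 -1.22 in WT and -1.32 in KO), while Icam2 was at -0.82 and -0.88 and Cldn5 at -0.68 in WT. Without both e13.5 libraries numbered 1 none of these 3 genes passed in either genotype. In WT all 3 calls were also lost without WT e13.5 library 1 (log2 -1.30 for Icam2, -1.53 for Ecscr and -0.96 for Cldn5), WT adult library 1 (-1.76, -2.40 and -1.73) or WT adult library 2 (-1.45, -1.85 and -1.22), and that of Cldn5 without KO e13.5 library 1 (-1.46), with no filter on low counts (-1.40) or with median-of-ratios scaling (-1.47). In KO, Icam2 and Ecscr were lost without KO e13.5 library 1 (-1.20 and -1.41) or KO adult library 2 (-1.05 and -1.53), and Icam2 without WT adult library 1 (-1.59) or WT adult library 2 (-1.58). The part of transcript length in these falls was not tested further.

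Plvap, the diaphragm protein of fenestrated and immature capillaries, was uneven between the libraries of a group. It had 4.56 and 118 CPM in WT e13.5, 6.44 and 33.2 in KO e13.5, 6.17 and 9.57 in WT adults and 31.5 and 9.74 in KO adults, so the ages overlapped in both genotypes. Its age difference did not pass the test in WT (-2.96 ± 1.27, adjusted p = 0.09) or in KO (0.05 ± 1.18, adjusted p = 0.976). Lyve1, a hyaluronan receptor of lymphatic endothelium (chr7:110850607-110863239), had 8.94 and 3.86 CPM in WT e13.5 and 6.44 and 3.76 in KO e13.5, against 33.0 and 26.4 in WT adults and 22.4 and 16.6 in KO adults. It rose 4.65-fold in WT (2.22 ± 0.55, adjusted p = 0.0117) and 3.84-fold in KO (1.94 ± 0.55, adjusted p = 0.0192), with no overlap of the ages. The call was lost in WT without WT adult library 1 (log2 2.05), and in KO without KO e13.5 library 2 (1.59), KO adult library 1 (1.72) or KO adult library 2 (2.15). Resident heart macrophages also carry Lyve1. A list of 14 macrophage and leukocyte genes summed to between 72.6 and 138.8 CPM at e13.5 and between 223.8 and 519 CPM in adults, and 7 of its 13 tested genes rose in WT and 6 in KO, Mrc1 among them (log2 3.15 ± 0.59 in WT, adjusted p = 0.00314). Across all tested genes, 17.8% rose in WT and 20.5% in KO. The part of macrophages in the rise of Lyve1 was not tested.

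Among the 6 growth factor receptors and their regulators, 1 rose in WT and 2 in KO, beside 17.8% and 20.5% of all tested genes. Ptprb rose in both genotypes. Ptprb encodes VE-PTP, a phosphatase that restrains the angiopoietin receptor (chr10:116275523-116389535). It had 5.25 and 44.7 CPM in WT e13.5, 9.06 and 14.5 in KO e13.5, 256 and 144 in WT adults and 183 and 178 in KO adults. Every adult library was above every e13.5 library, with log2 fold changes of 3.0 ± 0.84 in WT and 3.93 ± 0.88 in KO, with adjusted p of 0.0197 and 0.00687. In WT the call was lost without WT adult library 1 (log2 2.54).

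Kdr encodes VEGFR2, the main signalling receptor for VEGF-A (chr5:75932827-75978458). It had 20.1 and 121 CPM in WT e13.5, 27.5 and 36.8 in KO e13.5, 177 and 127.5 in WT adults and 462 and 274 in KO adults. Adult levels were above e13.5 levels in each genotype, narrowly so in WT. The difference passed in KO (11.4-fold, log2 3.52 ± 0.78, adjusted p = 0.00656) and not in WT (2.16-fold, 1.11 ± 0.71, adjusted p = 0.237). Kdr was the single gene of the 33 whose interaction of genotype and age reached an unadjusted p below 0.05, beside 1.59% of all tested genes. Its interaction was 2.41 ± 1.01 on the log2 scale (95% interval 0.15 to 4.66, unadjusted p = 0.0392), and the adjusted p was 1.

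Flt1, the VEGF receptor that also acts as a decoy, had 14.5 and 90.2 CPM in WT e13.5 and 11.6 and 64.9 in KO e13.5, against 213 and 149 in WT adults and 208 and 176 in KO adults. The ages did not overlap, but the change did not pass the test in WT (1.79 ± 0.89, adjusted p = 0.136) or KO (2.33 ± 0.91, adjusted p = 0.0643). Of the 19 alternatives run, 7 called it higher in WT and 11 in KO, DESeq2 and the e13.5 replicate block among them in both. Tek, the angiopoietin receptor, had 9.86 and 83.6 CPM in WT e13.5, which spanned the 64.8 and 46.7 CPM of WT adults, while KO had 14.7 and 46.5 CPM at e13.5 and 91.1 and 64.7 in adults, a difference that did not pass the test (1.35 ± 0.86, adjusted p = 0.223). Tie1, its orphan partner receptor, and Eng overlapped between the ages in KO and did not pass in either genotype. Tie1 had log2 fold changes of -0.23 ± 0.46 in WT and 0.42 ± 0.46 in KO, and Eng -0.47 ± 0.47 and -0.14 ± 0.47.

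Of the 6 genes for secreted proteins, enzymes and channels, 3 rose in each genotype: Aqp1 and Rgcc, given above, and Vwf. Of all tested genes, 17.8% rose in WT and 20.5% in KO. Vwf encodes von Willebrand factor, the large clotting protein stored in endothelial granules (chr6:125546774-125686679). It had 8.99 and 21.8 CPM in WT e13.5, 7.69 and 5.50 in KO e13.5, 132 and 129 in WT adults and 225 and 69.5 in KO adults. All adult libraries were well above all e13.5 libraries, and the rise was 8.48-fold in WT (log2 3.08 ± 0.66, adjusted p = 0.00595) and 22.4-fold in KO (4.48 ± 0.70, adjusted p = 0.00127). Platelets also carry Vwf. The summed level of 6 megakaryocyte and platelet genes was between 10.0 and 25.9 CPM at e13.5 and between 4.27 and 17.3 CPM in adults, and 3 of the 5 tested fell while none rose, in each genotype. Across all tested genes, 21.1% fell in WT and 20.9% in KO. The part of platelets in the levels of Vwf was not tested.

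Egfl7, Mmrn2 and Nos3, which encode an endothelial matrix protein, multimerin-2 and endothelial nitric oxide synthase, did not pass the test in either genotype. Egfl7 ranged from 84.4 to 139 CPM at e13.5 and from 66.2 to 123 in adults, and Mmrn2 from 75.5 to 88.0 and from 44.6 to 102. Nos3 had 34.7, 68.3, 22.8 and 58.5 CPM in the e13.5 libraries and 40.0, 37.2, 63.7 and 36.2 in the adult libraries, in the order WT 1, WT 2, KO 1, KO 2. Exons of Egfl7, Eng, Sox17, Ecscr, Cd34 and Nos3 overlap those of other annotated genes, and whether counting used the strand is not given in the sources used here, so some of their reads could belong to a neighbour.

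Of the 7 transcription factors, 3 rose in each genotype, beside 17.8% of all tested genes in WT and 20.5% in KO. Erg and Tcf15 rose in both genotypes. Erg, an ETS factor that keeps endothelial genes active (chr16:95359169-95586593), had 4.84 and 6.37 CPM in WT e13.5, 7.44 and 7.28 in KO e13.5, 27.4 and 20.2 in WT adults and 38.0 and 26.2 in KO adults. The 4 adult libraries were all above the 4 embryonic ones, with log2 fold changes of 2.09 ± 0.45 in WT and 2.12 ± 0.45 in KO, with adjusted p of 0.00648 and 0.00559. In WT the call was lost without WT adult library 1 (log2 1.86). Its relative Fli1, which blood cells share, did not pass the test. It had 13.2 and 28.6 CPM in WT e13.5, 11.7 and 36.0 in KO e13.5, 16.8 and 11.1 in WT adults and 22.1 and 12.7 in KO adults. The ages overlapped for Fli1 in both genotypes (-0.58 ± 0.63, adjusted p = 0.483 in WT).

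The 3 related SOX factors of vessels, which share an HMG box, differed in their values. Sox18 (chr2:181669836-181671640) had 21.6 and 21.5 CPM in WT e13.5, 29.3 and 34.5 in KO e13.5, 58.4 and 49.9 in WT adults and 92.1 and 42.8 in KO adults. Its ages did not overlap, and the rise passed in WT (1.33 ± 0.46, adjusted p = 0.0439) and not in KO (1.08 ± 0.46, adjusted p = 0.0813). The WT call was lost without any 1 of the 4 WT libraries (log2 1.22 to 1.47) and with upper quartile scaling. Sox17, an arterial factor (chr1:4490931-4497354), had 0.323 and 10.7 CPM in WT e13.5, 0.813 and 1.78 in KO e13.5, 19.5 and 17.5 in WT adults and 14.4 and 10.8 in KO adults. It passed in KO (3.25 ± 1.15, adjusted p = 0.0459) and not in WT (1.74 ± 1.07, adjusted p = 0.217), and the KO call was lost without any 1 of the 4 KO libraries or the 2 WT adult libraries (log2 2.84 to 3.94). Sox7 ranged from 30.1 to 49.6 CPM at e13.5 and from 11.9 to 36.7 in adults and did not pass in either genotype (-0.47 ± 0.55 in WT and -0.31 ± 0.55 in KO).

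The second question was whether loss of LncSync went with a difference in endothelial transcripts. At neither age did any of the 33 genes pass the test between KO and WT, with 0.0722% of all tested genes called at e13.5 and 0.0481% in adults. No member reached an unadjusted p below 0.05, beside 398 of all tested genes at e13.5 and 377 in adults. The smallest unadjusted p of a member was 0.0781 at e13.5 and 0.106 in adults, and DESeq2 called none of the 33 at either age. The median log2 difference (KO over WT) was -0.05 at e13.5 and 0.37 in adults, beside -0.07 and 0.01 for all tested genes. With 2 libraries a group the intervals were wide. For Pecam1 in adults the 95% interval of the log2 difference ran from -0.38 to 1.66, and for Kdr from -0.33 to 2.87, so these data do not show that the genotypes were alike.

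**Figure D4:**
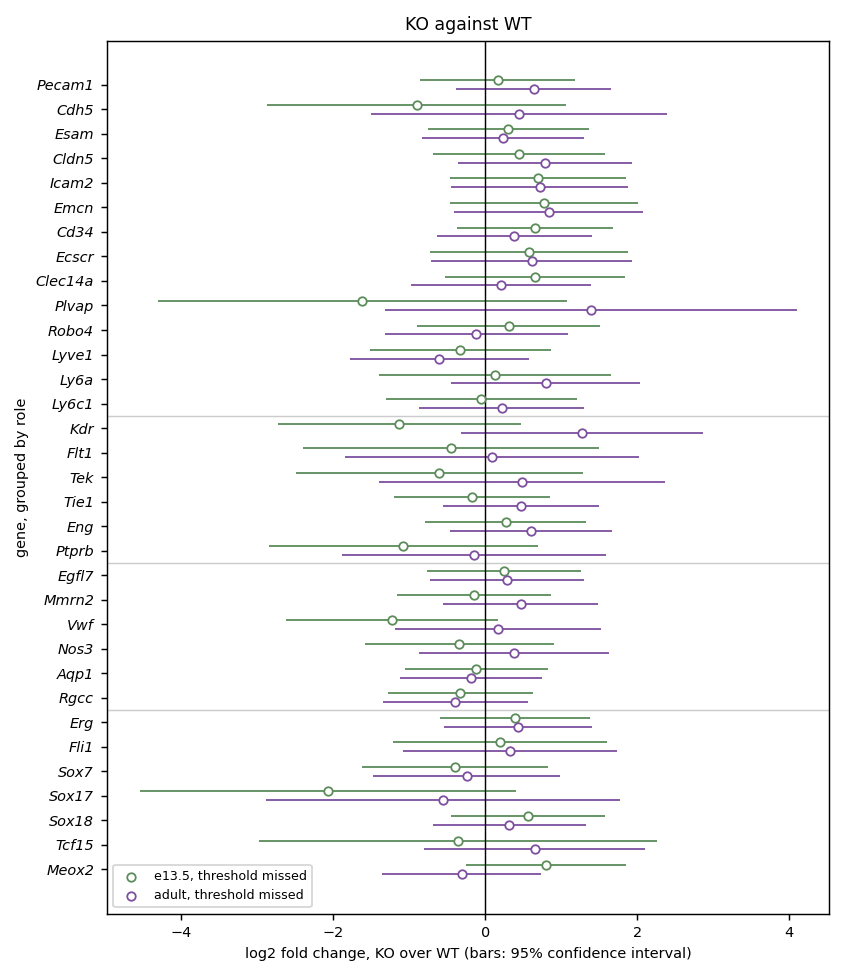
Log2 difference between KO and WT for each of the 33 endothelial genes at e13.5 and in adults, with bars showing 95% intervals. The intervals of all 33 genes include 0 at both ages.

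At e13.5 the libraries of the genotypes did not overlap for 11 of the 33 genes, beside 15.4% of all tested genes. The 33 genes share these libraries and are not independent, so this count does not measure how far the genotypes differ. Of the 11, 8 were higher in KO (Eng, Cldn5, Erg, Sox18, Icam2, Clec14a, Cd34 and Meox2) and 3 were lower (Vwf, Mmrn2 and Rgcc). Among blood markers, 9 of 10 tested erythroid genes (median 2.55-fold) and 5 of 5 platelet genes (median 2.02-fold) had higher fitted levels in KO. None of these passed the test. The erythroid sum was high in KO library 1 alone, at 153800 CPM, with 22180 in KO library 2 and 42050 and 19490 in WT. The genotypes did not overlap for 0 erythroid and 4 platelet genes. The part of blood cells in the differences of the endothelial genes was not tested. Cd34 had 157 and 154 CPM in the WT embryos and 255 and 234 in the KO embryos, a log2 difference of 0.65 ± 0.46 that did not pass the test. Eng had 270.3 and 270.1 CPM in WT and 327 and 324 in KO (0.27 ± 0.47). In Cd34 and Eng the e13.5 libraries of a group lay close together, and the standard error was large against the difference. That error draws on the gene's spread in all 4 groups and borrows from all genes. In the 2 KO adult libraries Eng had 411 and 180.4 CPM, and Cd34 182.4 and 89.0. Sox17 had the largest fitted difference at e13.5, -2.07 ± 1.11 (95% interval -4.55 to 0.41), and rested on 1 high WT library at 10.7 CPM.

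In adults the libraries of the genotypes did not overlap for 5 of the 33 genes, beside 27.9% of all tested genes. Kdr, Emcn and Plvap were higher in KO, and Sox17 and Lyve1 were lower. Kdr, with 462 and 274 CPM in KO against 177 and 127.5 in WT, had a log2 difference of 1.27 ± 0.71. Emcn had 72.7 and 41.0 CPM against 37.0 and 26.9, a log2 difference of 0.83 ± 0.56. Both were higher in each KO library than in each WT library, and neither passed the test. All adult values of Lyve1 were lower in KO, at 22.4 and 16.6 CPM against 33.0 and 26.4 (-0.60 ± 0.53).

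The libraries of each adult group differed from each other in most of the genes. All 33 endothelial genes were higher in KO adult library 1 than in KO adult library 2, by a median of 2.02-fold, and 32 of 33 were higher in WT adult library 1 than in WT adult library 2, by a median of 1.32-fold. The log2 medians of all tested genes in these pairs were 0.05 and 0.03. KO adult library 1 was the highest of the 4 adult libraries for 25 of the 33 genes (75.8%, beside 37.7% of all tested genes) and WT adult library 1 for the other 8. KO adult library 2 and WT adult library 2 had similar values, with 19 genes higher and 14 lower in KO and a median of 1.02-fold. Without KO adult library 1 the median log2 difference between KO and WT adults was -0.17 in place of 0.37, a change of direction. Other lists were also high there: 8 of 10 fibroblast genes, 9 of 13 macrophage genes and 7 of 10 smooth muscle and pericyte genes were highest in KO adult library 1, as were 2 of 10 cardiomyocyte genes. The cardiomyocyte list summed to 52190 CPM in KO adult library 1 and to between 74910 and 76150 CPM in the other adult libraries. This lower sum was uneven over the list. Myh6 had 25160 CPM in KO adult library 1 against 37270 to 42760 in the others, and Ttn 1231 against 4686 to 7470. Also lowest there were Ryr2 (1380 CPM against 1986 to 3300), Pln (4120 against 5883 to 6693), Myom1 (1537 against 1772 to 2119) and Tnnt2 (5977 against 5984 to 6949). Tnni3 had 4783 CPM there against 4315 to 5064, and Myl2 5968 against 4880 to 5611. Actn2 had 1939 CPM there against 1685 to 1984, and Nkx2-5 97.4 against 63.5 to 83.2. The part of the cell makeup of this library in the adult comparison was not tested.

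**Figure D5:**
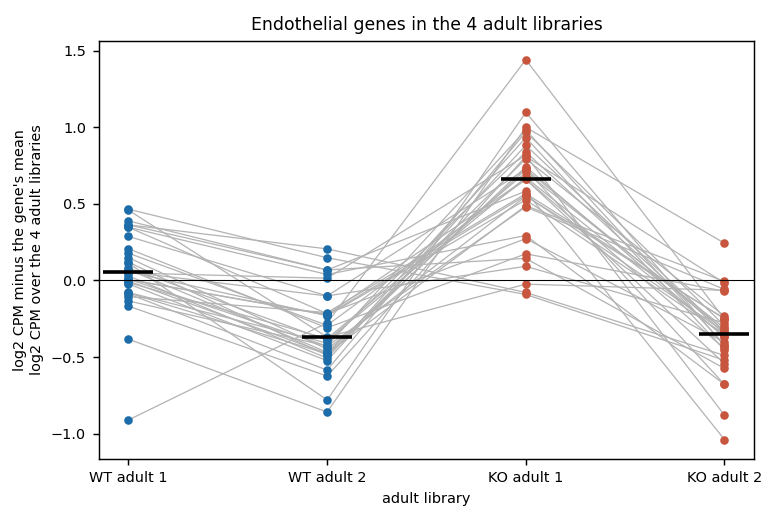
Log2 CPM of each of the 33 endothelial genes in the 4 adult libraries, minus the gene's mean log2 CPM over those libraries. Grey lines join the points of a gene and black bars mark the median of each library. KO adult library 1 is the highest for 25 genes and WT adult library 1 for 8, and the libraries numbered 2 are the highest for none.

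Genes of the pathways in which the 33 take part were read from the same fit. The counts of each list stand beside 17.8% of all tested genes that rose and 21.1% that fell in WT. In KO these shares were 20.5% and 20.9%. Of 12 ligands and receptors of the VEGF, angiopoietin and apelin systems, 2 rose and 1 fell in WT, and 3 rose and 2 fell in KO. Vegfa, the ligand of Kdr and Flt1, had 1.15 and 3.62 CPM in WT e13.5, 1.38 and 6.01 in KO e13.5, 249.7 and 503 in WT adults and 138 and 487 in KO adults. It rose by 7.29 ± 1.08 on the log2 scale in WT and 6.38 ± 1.03 in KO, with adjusted p of 0.00103 and 0.00146, with no overlap of the ages. Vegfb, a ligand of Flt1, rose 15.6-fold in WT and 20.9-fold in KO. Angpt2, the ligand that antagonises Tek, fell by 2.25 ± 0.59 on the log2 scale in WT (adjusted p = 0.0151).

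Of 15 Notch, arterial and venous genes, 3 rose and 3 fell in WT and 4 rose and 3 fell in KO. Across all tested genes, 17.8% rose and 21.1% fell in WT, and 20.5% and 20.9% in KO. Notch4, the endothelial Notch receptor, had 3.27 to 5.70 CPM at e13.5 and 46.3 to 73.8 in adults (log2 3.91 ± 0.51 in WT, adjusted p = 0.000555), and the ligand gene Jag2 3.27 to 6.10 and 42.2 to 74.1 (3.27 ± 0.49, adjusted p = 0.0011). The Notch target Hey1 went from 35.8 to 56.3 CPM at e13.5 down to 6.10 to 15.4 in adults (-2.08 ± 0.53, adjusted p = 0.0138). Gja5, the connexin-40 gene of arterial endothelium and of embryonic and conducting cardiomyocytes, fell by 5.15 ± 0.66 in WT (adjusted p = 0.00055). Of 14 endothelial transcription factors outside the 33, 5 rose and 2 fell in WT and 6 rose and 3 fell in KO. Those that rose included the flow-responsive factors Klf2 (1.90 to 5.48 CPM at e13.5 and 49.3 to 110.0 in adults, log2 4.28 ± 0.47 in WT) and Klf4 (2.38 ± 0.45), the hypoxia factor gene Epas1 (3.47 ± 0.83) and the LIM-domain partner Lmo2 (2.17 ± 0.45).

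In the list of capillary lipid uptake and transport, 8 of 11 genes rose and 1 fell in each genotype. Cd36, the fatty acid carrier of capillaries and muscle, had 79.9 to 137 CPM at e13.5 and 1363 to 1878 in adults (log2 3.76 ± 0.53 in WT, adjusted p = 0.000859). Lpl, the lipoprotein lipase that cardiomyocytes supply to the capillary surface, rose by 5.16 ± 0.71 (adjusted p = 0.000728). Timp4, a metalloproteinase inhibitor, had 0.25 to 0.553 CPM at e13.5 and 18 to 51.1 in adults, and Slc28a2, a nucleoside carrier, 0.158 to 0.413 and 32.9 to 42.2. Both rose in WT (log2 6.78 ± 0.65 and 6.82 ± 0.59) with no overlap of the ages. Cardiomyocytes also make several of these transcripts, and 4 of the 10 cardiomyocyte genes rose in WT and 5 in KO. The share of each cell type in these levels was not tested. No gene of any of these lists passed the test between KO and WT at either age.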

How the data were processed

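Total RNA (200 ng a library) was amplified with a Smart-seq2 protocol, per the labels' protocols. The authors deposited one table of estimated counts per Ensembl gene, made with RSEM on the mm10 genome, per the submitters' processing notes. Its values were whole numbers with totals that differ between libraries, so they were used as counts although the table is named as normalised. The aligner, annotation, filters and strand setting were not stated in the sources at hand. Gene symbols (51633 of 51826 identifiers matched), positions and transcript lengths came from GENCODE vM21. edgeR 4.0.16 (R 4.3.3) was run with filterByExpr, TMM scaling and the quasi-likelihood test on 4 group means over all 8 libraries, two-sided, with Benjamini-Hochberg adjustment over 16623 genes and a threshold of 0.05. The residual degrees of freedom were 4 and the median biological coefficient of variation 0.428, so a group of 2 libraries gives wide errors. Standard errors were worked out as the absolute log2 fold change over the square root of the test's F value, and the 95% intervals were built from them. Log2 ratios between 2 libraries used CPM + 0.5. Copies were sought with BLAST 2.17.0. Alternatives were DESeq2 1.42.0, 2 other scalings, 2 filters, the libraries of each comparison alone, a replicate block and leaving out each library, and, chosen after seeing the data, leaving out the e13.5 libraries of one number and length-adjusted offsets. All 33 genes are named in the text, and from each other list up to 4 genes called in WT by smallest p. Named beyond this rule were Tmem100, Alb and the cardiomyocyte genes not called in WT. The members and lists were chosen with earlier results of these data known.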

Additional observations from a re-analysis of the deposited data

How the results depend on the processing

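Under the 19 alternatives Ly6c1, Ly6a, Tcf15, Aqp1 and Vwf were called higher in adults in both genotypes in every setting, and no gene of the 33 was called in opposite directions. The other values depended more on single libraries. With a replicate block over all libraries 4 genes fell in KO in place of 2, beside 4078 of all tested genes in place of 3481. With a replicate block at e13.5 alone 16 genes rose in WT in place of 10, the median log2 fold change of all 33 was 0.905 in place of 0.25, and 4 fell in KO. Of all tested genes, 4563 then rose in WT in place of 2954, and 4729 fell in KO in place of 3481. The number of all tested genes that rose in WT also changed in the settings that follow. A changed count among the 33 is thus not by itself particular to them. Same-numbered WT and KO libraries deviated together at e13.5 (correlation 0.552) and in adults (0.307), but the numbers are not known to mark a shared source. Without both e13.5 libraries numbered 1, 1 gene fell in WT (Plvap) and 0 in KO. Without both numbered 2, 17 rose in WT, the median over all 33 was 1.29, and 5 fell in KO. With length-adjusted offsets 1 fell in WT and 1 in KO. The cause was not tested. Leaving out 1 library at a time gave 5 to 15 genes higher and 0 to 3 lower in WT, and 8 to 13 higher and 0 to 3 lower in KO. The lowest WT count came without WT adult library 1. The medians then ranged from 0.008 to 1.35 in WT, from -0.02 to 1.2 in KO, from -0.15 to 0.55 for KO against WT at e13.5, from -0.17 to 0.74 for KO against WT in adults and from -0.32 to 0.74 for the interaction. KO against WT and the interaction called 0 of the 33 in every setting run. Of the single-gene values, 2761 kept their direction and side of the threshold, 47 lost and 67 gained a call, and 226 changed sign with no call. Upper quartile scaling moved the median of all genes from -0.26 to -0.39 in WT and from -0.15 to -0.35 in KO, and median-of-ratios scaling to -0.26 in KO. At e13.5 median-of-ratios scaling moved it from -0.07 to 0.05 for KO against WT. Of all genes, 12 were called between KO and WT at e13.5 and 8 in adults, with DESeq2 20 and 23 higher and 15 and 31 lower, and with no filter on low counts 32 and 29 higher and 55 and 35 lower. The pseudocount alternative did not apply to counts, and the interaction was not run on the libraries of a single comparison.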

Other observations

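Genes of the endocardium, the endothelium that lines the heart chambers, and of the valves were followed as a list of 10. Of these, 4 fell in WT and 5 in KO and none rose, beside 21.1% and 20.9% of all tested genes that fell. Hapln1, a matrix linker of the cardiac jelly, had 9.68 and 40.8 CPM in WT e13.5 and 12.2 and 31.8 in KO e13.5, against 0 to 0.198 CPM in adults, a level at or under 3 counts a library. Nrg1, the endocardial signal for trabeculation, had 6.96 to 13.8 CPM at e13.5 and 0.0689 to 0.596 in adults. Cdh11, a cadherin of valve cells, fell by 4.06 ± 1.02 on the log2 scale in WT (adjusted p = 0.0123), and Adgrg6, an adhesion receptor of the endocardium, by 3.48 ± 0.87 (adjusted p = 0.012). Both were uneven between the e13.5 libraries, with Cdh11 at 44.3 and 131 CPM in WT and 12.2 and 146 in KO. Tmem100, a membrane protein of the BMP response in endothelium that is named here after its values were seen, was the fifth to fall in KO. It had 6.91 and 5.68 CPM in WT e13.5, 12.2 and 5.34 in KO e13.5, 13.7 and 12.9 in WT adults and 1.25 and 0.530 in KO adults. It fell by 3.29 ± 0.64 on the log2 scale in KO (adjusted p = 0.00366) and did not pass in WT (1.08 ± 0.57, adjusted p = 0.157). The adults of the genotypes did not overlap, and the difference between them did not pass the test (-3.89 ± 0.66, adjusted p = 0.145). Of 6 lymphatic genes, 1 rose (Reln, log2 2.27 ± 0.69 in WT, adjusted p = 0.0271) and 1 fell (Pdpn, -3.21 ± 0.57, adjusted p = 0.00262).

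Among genes of smooth muscle and pericytes, the cells that wrap vessels, 5 of 10 rose and 2 fell in each genotype. Across all tested genes, 17.8% rose and 21.1% fell in WT, and 20.5% and 20.9% in KO. Vtn, a pericyte transcript, had a single count among the e13.5 libraries (0.0461 CPM in WT library 1) and 16.3 to 48.8 CPM in adults. Abcc9, a channel subunit of pericytes that cardiomyocytes also make, had 16.5 to 45.8 CPM at e13.5 and 381 to 534 in adults (log2 3.92 ± 0.53 in WT, adjusted p = 0.000669). The 2 that fell were the contractile genes Acta2 and Tagln, which embryonic cardiomyocytes share: Acta2 had 822 to 2049 CPM at e13.5 and 77.7 to 242 in adults, and Tagln 127 to 167 and 8.68 to 9.55. Cd163, a scavenger receptor of resident macrophages, was listed at 0 to 0.0461 CPM at e13.5 and had 23.0 to 35.1 CPM in adults. The platelet integrin gene Itga2b had 5.30 to 11.6 CPM at e13.5 and 0.207 to 0.596 in adults (-4.19 ± 0.68 in WT, adjusted p = 0.00164). All 10 tested erythroid genes fell in KO and 9 in WT, 2 of 10 fibroblast genes fell in WT (Tcf21 and Col1a1), and 1 of 4 tested liver and lung genes fell. Alb, which was singled out after its values were seen and is the liver gene for albumin, had 38.8 CPM in WT adult library 2 and 56.2 in KO adult library 2 and was listed at 0 in the other adult libraries.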
